A study of Homo sapiens with 2 samples.

Results

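Cells attach many surface proteins to the membrane through glycosylphosphatidylinositol (GPI), a glycolipid. The 31 genes described here code for the enzymes that build this anchor, transfer it to proteins and trim it afterwards. The set was chosen by the TPM of PIGW, the enzyme that acylates the inositol ring, which was already known to be strongly lower with doxycycline in this same pair of libraries. The PIGW difference is therefore a description. Of the 31 genes, 30 had a value in the table, and 29 reached the mean of 1 TPM needed to enter the comparison, which held 11582 genes. TPM is a transcript abundance corrected for length and scaled to the same total in each library.

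The study sequenced polyadenylated RNA of HepG2, a human liver cancer cell line. Both libraries came from cells with an inducible SAMD4B cassette that responds to doxycycline (Dox). SAMD4B is related to Smaug, an RNA-binding repressor of the fly. In 1 library the cells had received 1 µg/ml Dox for 48 h, and in the other they had grown in its absence. With 1 library per group there was no spread between replicates, so no test could be made, and each difference below is one between these 2 libraries. No library of Dox-treated cells lacking the cassette was analysed here, so Dox and SAMD4B cannot be told apart, and nothing states whether the cells were 1 clone. In bulk RNA, fewer expressing cells and less RNA per cell cannot be told apart either.

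The anchor is assembled on the membrane of the endoplasmic reticulum. N-acetylglucosamine is added to phosphatidylinositol and deacetylated, the inositol receives an acyl chain, and mannoses from dolichol-phosphate-mannose and ethanolamine phosphates follow. The transamidase then swaps the C-terminal peptide of a protein for the finished lipid, and remodelling enzymes take off the inositol acyl chain, trim side groups and exchange a fatty acid on the way to the surface. Inherited loss of many of these genes causes developmental disorders, and somatic loss of PIGA in blood stem cells causes paroxysmal nocturnal haemoglobinuria.

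PIGW (ENSG00000277161, chromosome 17, 36535020 to 36539310, plus strand, GRCh38) had 1.27 TPM with Dox and 9.22 TPM without Dox. The library with Dox was far lower. On the scale of TPM plus 1 the log2 fold change was -2.17, and this ranked 29 from the lowest of the 11582 genes. The low TPM values of both libraries were near whole multiples of 1 value, which let fragments be estimated. PIGW had about 48 fragments with Dox and 277 without Dox. Divided by the total of estimated fragments in each library, these gave a fragment ratio of 0.134, and its 95% Clopper-Pearson interval ran from 0.0967 to 0.183. Such intervals cover counting error only, neither the variation between cultures nor the sharing of fragments among transcripts.

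On the scale of summed TPM plus 1, PIGW was the only gene of the pathway past 1.5-fold or 2-fold in the lower direction, and none was past either in the higher direction. Over all genes compared, 3.9% were at least 1.5-fold lower, 5.32% at least 1.5-fold higher, 0.967% at least 2-fold lower and 1.62% at least 2-fold higher. On that scale the other 28 genes lay within 1.5-fold, and 21 of the 29 lay within 1.25-fold, against 71.8% of all genes. These calls depended on the scale. In estimated fragments, GPAA1 was also past 1.5-fold lower (log2 fold change -0.59) and PIGV was past 2-fold higher (1.71). Over protein-coding transcripts alone, DPM2 was also past 1.5-fold lower (-0.97) and PIGV was past 1.5-fold higher (0.62). A total of 18 were lower with Dox by any amount and 11 higher, where 47.0% and 53.0% of all genes were. The median log2 fold change was -0.07 over the 29 genes and 0.02 over all genes. The summed level of the pathway was 699 TPM with Dox and 744 TPM without Dox. Without PIGW it was 698 TPM with Dox and 735 TPM without Dox.

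**Figure D1:**
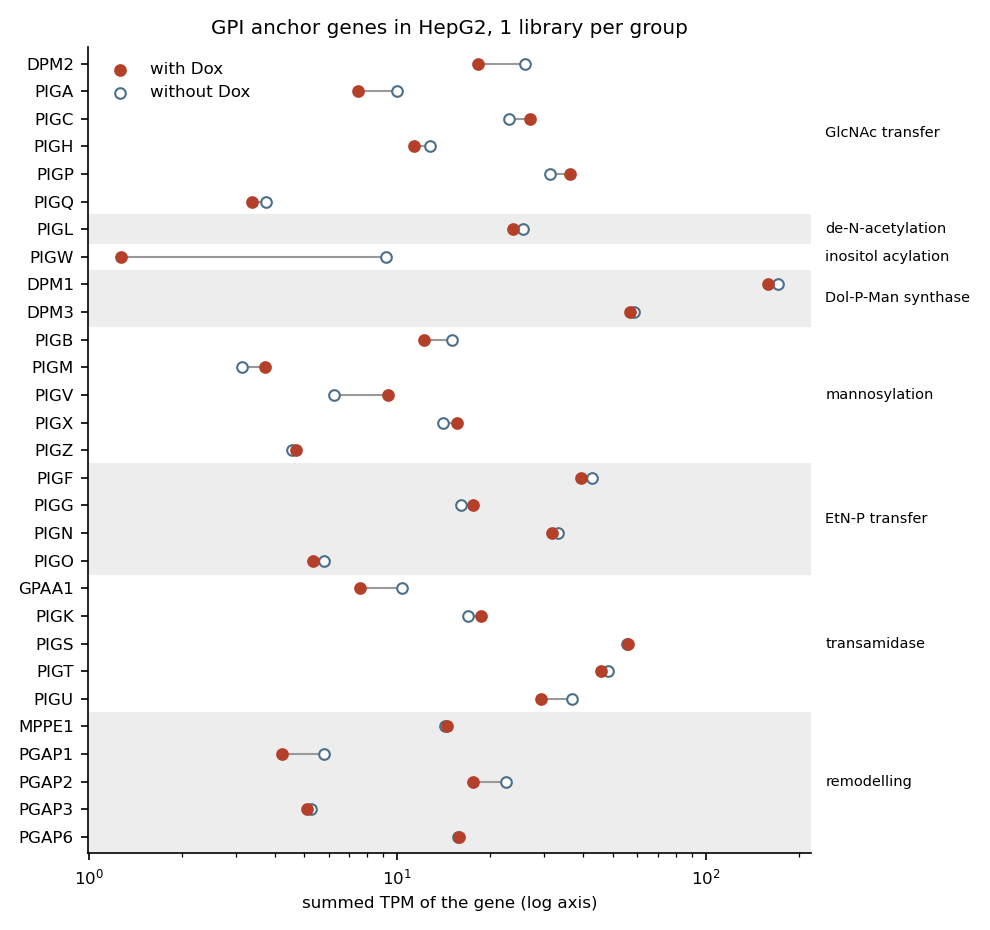
Summed TPM of each GPI anchor gene on a log axis, ordered by pathway step, with filled points for the library with Dox and open points for the library without Dox. The points nearly coincide for most genes, while PIGW is at 1.27 TPM with Dox and 9.22 TPM without Dox.

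PIGW shares its promoter region with MYO19, a mitochondrial myosin transcribed from the opposite strand. The window of 300 bases around the PIGW start is shown because the paired gene is the nearest internal comparison for PIGW. It lies at chr17:36534737-36535036 (plus strand, RefSeq, GRCh38.p14), and the capitals mark the 118 bases between the MYO19 start at 36534868 and the PIGW start at 36534987.
PIGW promoter: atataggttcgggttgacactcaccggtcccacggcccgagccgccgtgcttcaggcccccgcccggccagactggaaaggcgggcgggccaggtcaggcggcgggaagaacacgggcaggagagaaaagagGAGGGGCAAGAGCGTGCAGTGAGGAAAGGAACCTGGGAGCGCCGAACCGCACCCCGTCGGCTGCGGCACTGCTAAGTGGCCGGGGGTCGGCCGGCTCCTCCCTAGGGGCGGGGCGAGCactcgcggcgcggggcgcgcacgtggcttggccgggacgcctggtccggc
The window has a GC content of 72.3%. It holds 1 match to the E-box CACGTG, which lies outside the capitals, and 3 matches to the GC-box GGGCGG on either strand, 1 of them inside the capitals. A total of 7.26% of all 35116 promoter windows held the E-box and 45.0% the GC-box. MYO19 had 8.01 TPM with Dox and 8.14 TPM without Dox, a log2 fold change of -0.02 and a fragment ratio of 0.960 (counting interval 0.847 to 1.09). PIGW was thus lower with Dox while the interval of MYO19, on the other side of these 118 bases, included 1. MYO19 was read from only 1 of its 27 annotated transcripts.

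The PIGW value also comes from an incomplete listing. PIGW-204 (2312 nt) was the only one of its 3 annotated transcripts found in the table. PIGW-205 and PIGW-206 were not found under their identifiers and are not analysed here. PIGW-206 has 1799 bases in common with PIGW-204, or 77.8% of it, and PIGW-205 has 854, or 36.9%. Only 500 bases of PIGW-204, or 21.6%, lie in neither. In the annotation, 582 exonic bases of PIGW, 20.8%, overlap MYO19 on the opposite strand, and the strandedness of the library is not given in the sources used here.

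How completely a gene was listed moved with how often genes differed. Among the 10603 genes with every annotated transcript in the table, 0.783% were at least 2-fold lower and 1.55% at least 2-fold higher. Among the 979 genes with some transcripts not listed, 2.96% were at least 2-fold lower and 2.45% at least 2-fold higher. Of these, 139 genes had under 50% of their transcripts listed, as PIGW has, and 10.8% were at least 2-fold lower and 5.04% at least 2-fold higher. The part of the incomplete listing in the PIGW difference was not tested. PIGV and PIGX, with 5 of 6 and 9 of 11 transcripts, and PIGY were the other incomplete genes of the pathway, and the remaining 27 were complete.

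**Figure D2:**
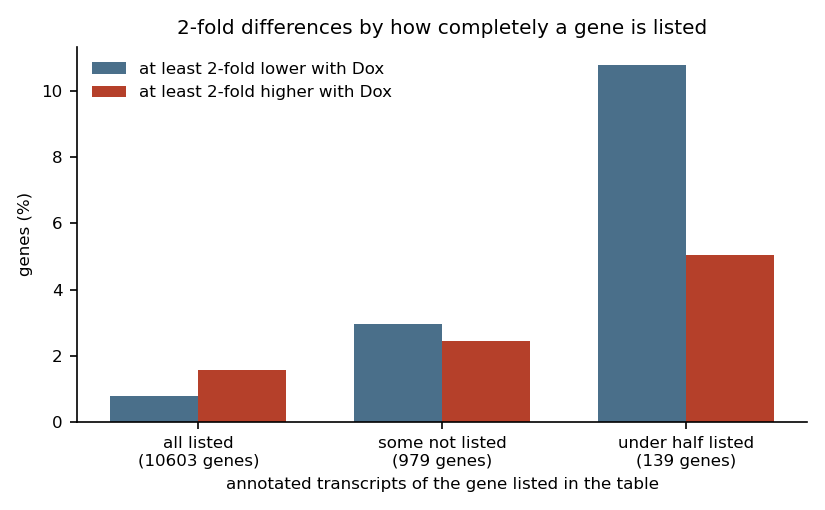
Percent of genes at least 2-fold lower or higher with Dox, by how many of the annotated transcripts of a gene are in the table; the last group is contained in the middle one. The shares are 0.783% lower and 1.55% higher for fully listed genes, and 10.8% lower and 5.04% higher where under 50% of the transcripts are listed, as for PIGW.

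The first step, transfer of N-acetylglucosamine, is carried out by a complex of several subunits, and their summed level was 104 TPM with Dox and 107 TPM without Dox. PIGA, the catalytic subunit, had 7.45 TPM with Dox and 9.95 TPM without Dox (log2 fold change -0.37). Its fragment ratio was 0.762 (0.661 to 0.877). PIGC, a membrane subunit, stood on the other side with 27.0 TPM with Dox and 23.0 TPM without Dox, but its interval of 0.983 to 1.27 included 1. PIGP, a small membrane subunit, had 36.2 TPM with Dox and 31.3 TPM without Dox (0.21), and a fragment ratio of 1.33 (1.25 to 1.41). PIGH, which binds PIGA, had 11.4 TPM with Dox and 12.8 TPM without Dox. PIGQ, another subunit, had 3.39 TPM with Dox and 3.75 TPM without Dox, with a fragment ratio of 0.667 (0.482 to 0.921) on only 74 and 86 fragments. The subunits thus did not share 1 direction.

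DPM2 serves both this complex and dolichol-phosphate-mannose synthase, which it stabilises. It had 18.3 TPM with Dox and 25.9 TPM without Dox (log2 fold change -0.48), the lowest log2 value of the pathway after PIGW. The fragment ratio was 0.676 (0.586 to 0.780), and 6.16% of all genes compared had a lower log2 fold change. PIGY, a small subunit of the transferase, had no value, since its only annotated transcript is not in the table. Its annotated 217 nt lie whole within PYURF-201, at bases 557 to 773 of 1361. PYURF, which codes for a small mitochondrial protein from the same mRNA, had 91.6 TPM with Dox and 94.5 TPM without Dox (-0.05). Reads of PIGY and PYURF cannot be told apart in such a transcript.

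PIGL, which removes the acetyl group, had 23.8 TPM with Dox and 25.6 TPM without Dox, with a fragment ratio of 0.848 (0.704 to 1.02). The mannose donor comes from dolichol-phosphate-mannose synthase, whose catalytic subunit DPM1 was the most abundant member at 159 TPM with Dox and 172 TPM without Dox (log2 fold change -0.10). Its depth gave a narrow interval of 0.845 to 0.954 around 0.898. DPM3, which tethers DPM1 to the membrane, had 56.7 TPM with Dox and 58.7 TPM without Dox. All DPM3 transcripts are shorter than the 600 nt needed for a fragment estimate.

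The mannosyltransferases summed to 45.5 TPM with Dox and 43.0 TPM without Dox. Of the 5, 4 were higher with Dox, where 53.0% of all genes compared were. However, PIGX and PIGB had the other sign under some alternative settings. The counting intervals of PIGM (0.997 to 1.33), PIGX (0.872 to 1.12) and PIGZ (0.944 to 1.51) included 1. PIGM, which adds the first mannose, had 3.72 TPM with Dox and 3.15 TPM without Dox (log2 fold change 0.19). PIGX, the stabilising partner of PIGM, had 15.6 TPM with Dox and 14.0 TPM without Dox. PIGV adds the second mannose and had the highest log2 fold change of the pathway, 0.52, with 9.35 TPM with Dox and 6.22 TPM without Dox. Its estimated fragments differed more than its TPM, 188 with Dox and 44 without Dox (ratio 3.31, 2.37 to 4.71). PIGB, which adds the third, had 12.2 TPM with Dox and 15.1 TPM without Dox (-0.29), and PIGZ, which adds a side-branch mannose, had 4.70 TPM with Dox and 4.57 TPM without Dox. PIGBOS1, a mitochondrial microprotein gene on the strand opposite PIGB, had 22.4 TPM with Dox and 24.0 TPM without Dox.

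The ethanolamine phosphate transferases stayed close to their values without Dox. PIGN, which modifies the first mannose, had 31.7 TPM with Dox and 33.2 TPM without Dox, and a fragment ratio of 1.02 (0.956 to 1.08). PIGO, which acts on the third mannose, had 5.34 TPM with Dox and 5.80 TPM without Dox. PIGG, which acts on the second, had 17.7 TPM with Dox and 16.1 TPM without Dox, with a ratio of 1.13 (1.01 to 1.26). PIGF, the shared partner of PIGO and PIGG, had 39.4 TPM with Dox and 42.7 TPM without Dox. The neighbouring gene CRIPT, which overlaps PIGF on the opposite strand, had 23.2 TPM with Dox and 19.98 TPM without Dox. No member of this step was past 1.25-fold.

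The transamidase has 5 subunits, and their sum was 158 TPM with Dox and 168 TPM without Dox. PIGK, the protease-like catalytic subunit, had 18.6 TPM with Dox and 16.9 TPM without Dox (log2 fold change 0.13), with a fragment ratio of 1.16 (1.05 to 1.27). GPAA1, which helps form the bond to the anchor, had 7.57 TPM with Dox and 10.3 TPM without Dox (-0.40), with a ratio of 0.664 (0.548 to 0.804). PIGU, a membrane subunit of the complex, had 29.3 TPM with Dox and 36.9 TPM without Dox (-0.32), with a ratio of 0.779 (0.702 to 0.865). PIGS and PIGT, which form the lumenal part, hardly differed. PIGS had 56.1 TPM with Dox and 55.6 TPM without Dox, and PIGT 45.9 TPM with Dox and 48.3 TPM without Dox. Within this complex the catalytic subunit was higher while GPAA1 and PIGU were lower with Dox.

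Among the remodelling genes, PGAP1, which removes the acyl chain that PIGW adds, had 4.24 TPM with Dox and 5.80 TPM without Dox (log2 fold change -0.37). Its ratio was 0.763 (0.687 to 0.848). MPPE1, which removes ethanolamine phosphate from the second mannose, had 14.5 TPM with Dox and 14.3 TPM without Dox. PGAP3 takes off an unsaturated fatty acid and PGAP2 takes part in adding a saturated one. PGAP3 had 5.09 TPM with Dox and 5.26 TPM without Dox, and PGAP2 had 17.6 TPM with Dox and 22.6 TPM without Dox (-0.35, ratio 0.821, 0.711 to 0.948). PGAP6, a GPI-cleaving phospholipase, was at 15.8 TPM in both libraries, and PGAP4, which adds a galactosamine side branch, was listed at 0 in both.

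A fragment ratio with an interval could be had for 26 genes. The interval lay below 1 for 9 of them, above 1 for 4, and included 1 for 13. Over all 9786 genes with an estimate, 29.2% lay below 1 and 24.7% above 1, so differences beyond counting error were common in this pair of libraries. The 9 below 1 were PIGW, DPM2, GPAA1, PIGQ, PIGA, PGAP1, PIGU, PGAP2 and DPM1. The 4 above 1 were PIGV, PIGP, PIGK and PIGG. Over the main setting and its alternatives, 13 genes of the pathway were lower with Dox in every setting that gave a value and 8 higher in every one. The other 8, PIGH, PIGX, PIGB, PIGN, PIGS, PIGT, PGAP3 and PGAP6, had both signs.

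**Figure D3:**
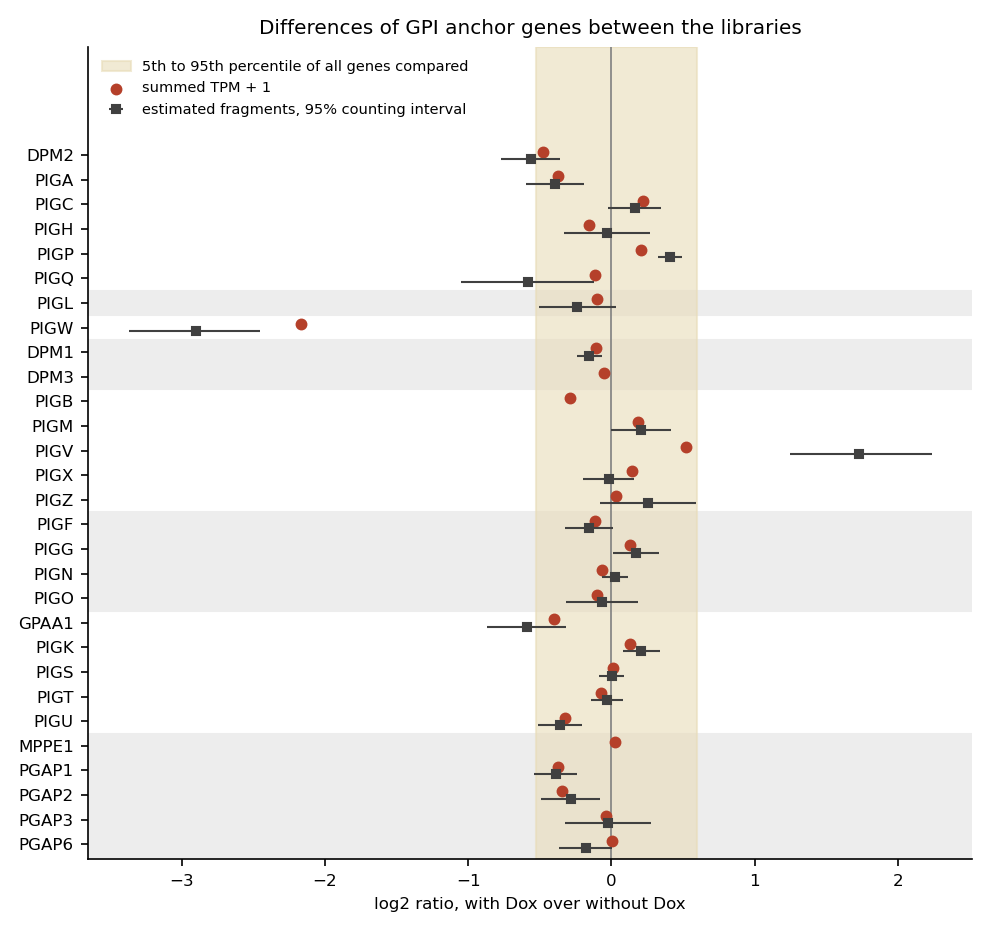
Log2 ratio, with Dox over without Dox, of each compared GPI anchor gene from summed TPM plus 1 (filled points) and from estimated fragments with 95% counting intervals (squares); the band spans the 5th to 95th percentile of all genes compared, -0.53 to 0.60. PIGW lies far left of the band at -2.17, and every other summed TPM point lies inside it.

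The table gives transcripts, and several genes of the pathway differed more within themselves than in their sums. Salmon, the tool that estimated these values, divides a fragment among all transcripts it could come from, and the part of that division in the values below was not tested. The 29 compared genes and the 2 others held 443 listed transcripts of 449 annotated. Of these, 262 were above 0 in at least 1 library and 107 reached 1 TPM in at least 1 library. A total of 23 of the 107 were listed at 0 in 1 library, 12 of them seen with Dox only and 11 without Dox only. This was 21.5% of the pathway's transcripts at that level, while 4971 of all 38227 transcripts at that level were so listed.

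In DPM2 the coding and the retained-intron transcripts parted. Its coding transcript DPM2-201 (1542 nt) had 6.81 TPM with Dox and 14.4 TPM without Dox, and a fragment ratio of 0.460 (0.376 to 0.563). This transcript made up 37.2% of the gene with Dox and 55.4% without Dox. The retained-intron transcripts of DPM2 together had 11.2 TPM with Dox and 11.1 TPM without Dox, so the lower sum lay in the coding form. A gene on the opposite strand overlaps 19.2% of its exonic bases.

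PIGF differed little in its sum while its transcripts differed in opposite directions. PIGF-201 had 23.9 TPM with Dox and 20.4 TPM without Dox, and PIGF-202 had 10.3 TPM with Dox and 19.0 TPM without Dox (fragment ratio 0.524, 0.422 to 0.649). PIGF-202 was 26.2% of the gene with Dox and 44.5% without Dox.

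The PIGV difference lay in 2 long coding transcripts that were listed at 0 without Dox. PIGV-201 had 2.35 TPM and PIGV-202 had 0.951 TPM with Dox. The shorter PIGV-205 had 3.75 TPM with Dox and 4.39 TPM without Dox, and PIGV-206, annotated as a target of nonsense-mediated decay, had 2.09 TPM with Dox and 1.83 TPM without Dox. Without transcripts listed at 0 in 1 library, the PIGV log2 fold change was 0.15.

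In PIGP, the long PIGP-202 (6998 nt) had 23.6 TPM with Dox and 16.8 TPM without Dox (fragment ratio 1.37, 1.29 to 1.45). PIGP-204 went the other way, with 1.25 TPM with Dox and 4.63 TPM without Dox, and PIGP-205 was at 3.68 TPM with Dox and listed at 0 without Dox. Without transcripts listed at 0 in 1 library, the PIGP log2 fold change was 0.06. PGAP3 and PGAP6 each had a coding transcript listed at 0 with Dox. PGAP3-206 was at 1.45 TPM without Dox, beside PGAP3-201 at 3.81 TPM with Dox and 2.73 TPM without Dox. The PGAP6 transcript TMEM8A-201, named by an older symbol, was at 4.17 TPM without Dox. TMEM8A-204 had 7.07 TPM with Dox and 5.60 TPM without Dox. The retained-intron TMEM8A-207 had 5.81 TPM with Dox and 3.60 TPM without Dox. The PGAP6 coding transcripts summed to 8.03 TPM with Dox and 11.7 TPM without Dox, although the gene as a whole was level.

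**Figure D4:**
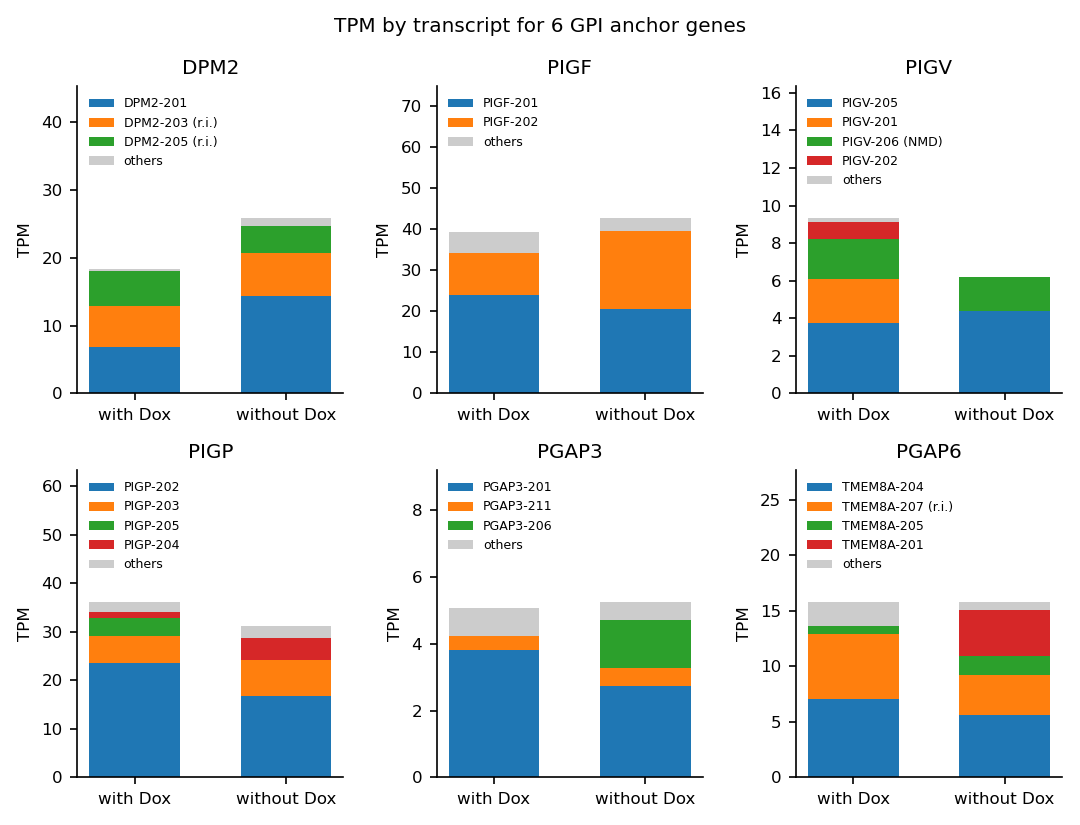
Stacked bars of TPM by transcript for DPM2, PIGF, PIGV, PIGP, PGAP3 and PGAP6, with the library with Dox on the left and without Dox on the right of each panel (r.i., retained intron; NMD, nonsense-mediated decay). The DPM2-201 segment is 6.81 TPM with Dox and 14.4 TPM without Dox, and the sums of PIGF, PGAP3 and PGAP6 are close while their segments differ.

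Other genes of the pathway also had shifts between their transcripts. PGAP2-205 was listed at 0 with Dox and had 3.26 TPM without Dox, while PGAP2-227 had 2.84 TPM with Dox and 5.69 TPM without Dox. PGAP2-201 and PGAP2-203 went the other way, at 1.67 and 1.15 TPM with Dox and listed at 0 without Dox. PGAP1-205 had 0.609 TPM with Dox and 1.82 TPM without Dox, whereas the main PGAP1-201 had 2.40 TPM with Dox and 2.97 TPM without Dox. GPAA1-201, the main transcript of GPAA1, had 4.85 TPM with Dox and 7.76 TPM without Dox (fragment ratio 0.610, 0.493 to 0.753). Its retained-intron GPAA1-205 had 1.55 TPM with Dox and was listed at 0 without Dox. The retained-intron GPAA1-217 was listed at 0 with Dox and had 1.13 TPM without Dox. For PIGB the sign depended on the transcript. Coding PIGB-201 had 7.67 TPM with Dox and 6.25 TPM without Dox, and PIGB-212, annotated as a decay target, had 2.52 TPM with Dox and 5.01 TPM without Dox. MPPE1-230, a short non-stop decay transcript, had 2.45 TPM with Dox and 5.55 TPM without Dox. The coding transcripts of MPPE1 went the other way in their sum, with 8.39 TPM with Dox and 5.63 TPM without Dox (log2 fold change 0.50). In PIGA, PIGA-201 had 4.79 TPM with Dox and 5.55 TPM without Dox, and the decay-annotated PIGA-214 had 1.40 TPM with Dox and 0.412 TPM without Dox. A total of 17 of the 29 genes had a transcript whose share of the gene differed by at least 10 percentage points between the libraries, where 38.4% of all genes compared that were above 0 in both libraries did. By shares of estimated fragments, 11 genes of the pathway did, against 25.8% of all genes.

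By annotated type, coding transcripts held 84.9% of the pathway's TPM with Dox and 84.0% without Dox, against 88.8% and 88.6% of all matched TPM in the same libraries. Decay-annotated transcripts held 6.04% of the pathway's TPM with Dox and 5.36% without Dox. Their share of all matched TPM was 2.24% with Dox and 2.26% without Dox. The pathway's share was thus above that of the pooled TPM in both libraries, and abundant genes weigh most in that pool. PIGS alone held 14.9 of the pathway's 42.2 decay-annotated TPM with Dox. Without Dox it held 13.2 of 39.9 TPM, and several members had none in either library.

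Smaug proteins of the fly bind hairpins with a CNGG loop. The most abundant transcript of each gene (GENCODE 29, GRCh38) was therefore searched for CNGG and up to 4 more bases closed by 5 paired bases. Pairs of G with U were counted as paired. A match is a description of the letters, not a binding site. The hairpins of PIGW and of DPM2, the 2 genes with the lowest log2 fold changes, are shown, with the loop motif in capitals.
PIGW coding sequence (chr17:36538264-36538278, plus strand): uauuaCUGGgugaua
DPM2 5′ UTR (chr9:127938398-127938412, minus strand): uggccCGGGaggccg
DPM2 5′ UTR (chr9:127937834-127937848, minus strand): cggcuCGGGuggcug
DPM2 3′ UTR (chr9:127935356-127935371, minus strand): cuuagCAGGuucuaag
PIGW, the gene with the largest difference, had 1 such hairpin in 2312 nt, or 0.433 per kb, and 35.7% of all genes had a lower density. DPM2 had 3 hairpins, or 1.95 per kb. Of the 29 genes, 21 held at least 1 hairpin, or 72.4%, against 76.6% of the 11582. The median log2 fold change was -0.07 for the pathway genes with a hairpin and -0.08 for those without. Over all genes these medians were 0.02 with a hairpin and 0.01 without. Only 1 transcript of each gene was searched, and for some genes, such as PIGV, it was not the one in which the libraries differed most.

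In the promoter windows of the pathway, 40 windows of 26 genes, the ETS core CCGGAAG was found on either strand in 13, or 32.5%. It was found in 17.8% of the 13192 windows of the genes compared and in 10.3% of all windows, and the PIGW window has none. The E-box was in 7.5% of the pathway's windows, the GC-box in 52.5% and CCAAT in 27.5%. The shares in windows of the genes compared were 9.50% for the E-box, 66.2% for the GC-box and 35.3% for CCAAT. Windows of 1 gene overlap in part, so these shares are a description.

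The pathways that feed GPI synthesis and use its product were described from lists of other genes. The list of dolichol and N-glycan synthesis, which shares its mannose donor with the anchor, had 30 genes compared, 15 higher and 15 lower with Dox, with a median log2 fold change of -0.04. None was at least 1.5-fold higher and 3 were at least 1.5-fold lower. MPDU1, needed to use dolichol-phosphate-mannose and thus for both pathways, had 22.1 TPM with Dox and 37.0 TPM without Dox (log2 fold change -0.72, fragment ratio 0.665, 0.587 to 0.753). ALG10B, a glucosyltransferase, had 4.73 TPM with Dox and 8.28 TPM without Dox (-0.70). Its transcript of 571 nt had 0.373 TPM with Dox and 2.83 TPM without Dox. The main ALG10B transcript had 4.29 TPM with Dox and 5.32 TPM without Dox. The near copy ALG10 had 4.36 TPM with Dox and 5.95 TPM without Dox (-0.38). Its fragment ratio was 0.919, with an interval that included 1 (0.756 to 1.12). The ALG10 transcript of 571 nt was listed at 0 with Dox and at 1.17 TPM without Dox. The main ALG10 transcript was nearly level, at 4.32 TPM with Dox and 4.40 TPM without Dox. The split of fragments between those copies is uncertain. SRD5A3, a polyprenol reductase picked out after its values were seen, was the other gene at least 1.5-fold lower. It had 1.35 TPM with Dox and 6.99 TPM without Dox (-1.77). Its transcript ENST00000505210 was listed at 0 with Dox and at 5.08 TPM without Dox, and the fragment ratio of the gene was 0.522 (0.400 to 0.678). On the higher side, ALG14, which acts early in N-glycan assembly, had 7.14 TPM with Dox and 4.74 TPM without Dox (0.50). The higher sum lay in its transcript of 446 nt, not annotated as coding, at 4.87 TPM with Dox and 2.09 TPM without Dox. The coding ALG14 transcript of 9367 nt went the other way, at 2.27 TPM with Dox and 2.64 TPM without Dox. A fragment ratio was not given for ALG14 because 41.4% of its TPM lay on transcripts of at least 600 nt. The glucosyltransferase ALG8 had 52.1 TPM with Dox and 42.2 TPM without Dox (0.30), and ALG13, the partner of ALG14, had 34.3 TPM with Dox and 28.2 TPM without Dox (0.27).

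The list for flipping, exit from the endoplasmic reticulum and release of GPI proteins had 13 genes compared, 5 higher and 8 lower, with a median of -0.02. GDPD5, a phosphodiesterase that releases some GPI proteins, was the only one past 1.5-fold, with 6.61 TPM with Dox and 10.6 TPM without Dox (log2 fold change -0.61, fragment ratio 0.671, 0.569 to 0.792). CLPTM1L, a lipid scramblase of the pathway, had 48.2 TPM with Dox and 61.3 TPM without Dox (-0.34), with 5 of its 16 annotated transcripts listed. The coat protein SEC13 had 218 TPM with Dox and 260 TPM without Dox (-0.25). The cargo receptors differed little, with TMED10 at 158 TPM with Dox and 138 TPM without Dox (0.19) and TMED9 at 169 TPM with Dox and 159 TPM without Dox (0.09). GPLD1, the secreted GPI phospholipase D of liver, had 6.35 TPM with Dox and 5.67 TPM without Dox (0.14).

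Of 82 listed genes for GPI-anchored proteins, 80 had a value, 21 were at 0 in both libraries and 22 were compared. Of these, 13 were higher and 9 lower with Dox, with a median of 0.06, and the whole list summed to 2699 TPM with Dox and 2721 TPM without Dox. Most of it was the glypican GPC3, also a HepG2 marker, with 1952 TPM with Dox and 2027 TPM without Dox (-0.05). CD55, a complement inhibitor, had 49.5 TPM with Dox and 34.9 TPM without Dox (log2 fold change 0.49, fragment ratio 1.33, 1.24 to 1.43). The prion protein gene PRNP had 105 TPM with Dox and 77.7 TPM without Dox (0.43, ratio 1.72, 1.61 to 1.83). NT5E, the ectonucleotidase CD73, had 46.2 TPM with Dox and 39.2 TPM without Dox (0.23). On the lower side, the hyaluronidase HYAL2 had 17.3 TPM with Dox and 26.2 TPM without Dox (-0.57, ratio 0.632, 0.564 to 0.709). LY6E had 19.6 TPM with Dox and 25.1 TPM without Dox (-0.34), read from 1 of 15 transcripts, and the ephrin EFNA1 had 81.0 TPM with Dox and 85.7 TPM without Dox (-0.08). The only gene past 1.5-fold, the folate receptor FOLR1, was picked out after its values were seen and lay near the filter, at 2.92 TPM with Dox and 0.795 TPM without Dox (1.13). RNA levels say nothing of how much of these proteins carried an anchor.

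The labels were checked against the data. SAMD4B had 261 TPM with Dox and 47.5 TPM without Dox (log2 fold change 2.44), and cassette and resident gene cannot be told apart in it. All 10 hepatocyte and HepG2 markers were above the filter and summed to 24356 TPM with Dox and 26892 TPM without Dox, with AFP at 12140 TPM with Dox and 13406 TPM without Dox. Their median log2 fold change was -0.15, with 9 of the 10 lower with Dox, and the part of this in the GPI genes was not tested. The leukocyte markers PTPRC and CD3E and the endothelial marker VWF were listed at 0 in both libraries, while CD68 had 11.3 TPM with Dox and 10.7 TPM without Dox and PECAM1 had 4.55 TPM with Dox and 4.57 TPM without Dox. The fibroblast markers summed to 0.163 TPM with Dox and 0.343 TPM without Dox. The estimated depth, counted over matched transcripts of at least 600 nt only, was 23765459 fragments with Dox and 18420962 without Dox.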

How the data were processed

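The authors deposited TPM values per Ensembl transcript in 1 table (184844 transcripts). The submitters' processing notes name Trimmomatic, Salmon and GRCh38.p13, and the sources used here give no versions or options. Each library sums to 1000000, so a gene's TPM depends on all others.

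Transcripts were named through GENCODE 29 by identifier without version. Of them 161798 matched. The 23046 others held 6.66% of the TPM with Dox and 6.73% without Dox. A gene's value is the sum over its matched transcripts. Differences are log2 ratios, with Dox over without Dox, after adding 1 to each TPM, for genes with a mean of at least 1 TPM, which understates the change of low genes.

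Depth was estimated because low TPM times length, less an offset of 310 nt with Dox and 300 nt without Dox, fell near whole multiples of 1 value. Of values under 5.5 fragments, 523 of 651 with Dox and 502 of 648 without Dox were within 0.1 of a whole number. The fit used these same values, so this is no independent check. Ratios with exact 95% Clopper-Pearson intervals were given where transcripts of 600 nt or more held at least 80% of a gene's TPM.

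The members and lists were chosen with earlier results of these data known. Named genes are all members, the 3 highest and 3 lowest of each related list at a mean of at least 5 TPM, and genes sharing a promoter or transcript with a member. Scripts were tested on simulated data. Python 3.11.15, pandas 2.3.3, scipy 1.17.1 and matplotlib 3.10.9 were used.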

Additional observations from a re-analysis of the deposited data

How the results depend on the processing

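Alternatives changed the pseudocount, the filter, the transcripts summed, the scaling, or used estimated fragments. Restricting to genes with every annotated transcript listed, and offsets 50 nt shorter or longer, were chosen after seeing the data. PIGW, the only gene of the pathway past 1.5-fold in the main setting, kept its sign, while 8 genes within 1.5-fold had both signs. Of 146 values for groups 124 stayed and 22 moved, and of 283 for single genes 252 stayed and 31 moved. A count stayed within a factor of 1.5 and a median log2 fold change within 0.1. A single gene stayed within the reach of its counting interval to either side, and moved with any change where it had none. Settings that only choose which genes are kept leave single-gene values the same by construction, so these tallies do not measure stability. PIGW was at least 1.5-fold lower in all 10 settings that gave it a value, from -2.86 to -1.18. Its 1 listed transcript is coding and above 0 in both libraries. The settings on the filter, on coding transcripts and on transcripts at 0 therefore could not move it. The rest rescaled the same pair of TPM values, so this range is a description. Of the genes at least 1.5-fold lower (1), coding transcripts alone gave 2, adding DPM2, fragments gave 2, adding GPAA1, and fully listed genes gave 0, also at 2-fold, because that setting leaves PIGW out by construction. Of those at least 1.5-fold higher (0), coding transcripts and fragments each gave 1, PIGV, and fragments gave 1 at 2-fold. GPI-anchored proteins at least 1.5-fold lower (0) numbered 3 with pseudocount 0.1, 1 without the filter, 1 after division by the median ratio and 3 in fragments. Those higher (1) numbered 2 with pseudocount 0.1, 0 with 5, 0 at a mean of 5 TPM and 3 in fragments. Exit and release genes lower (1) numbered 0 with pseudocount 5, 0 with coding transcripts and 0 in fragments. Dolichol genes higher (0) numbered 1 with coding transcripts and 1 without transcripts at 0 in 1 library, where those lower (3) numbered 1. Genes with a share differing by 10 points (17) numbered 11 in fragments. The other causes were not tested. No paired analysis was possible because each group has 1 library. At low levels, such as PIGQ and PIGV, few fragments limit precision.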
